A study of Mus musculus with 2 samples.

Results

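Classical monocytes were 216 of the 2985 cells kept from the central nervous system of transplanted mice. They made up 81 of 1234 cells of the Cx3cr1 heterozygous library (6.56%, 95% exact Clopper-Pearson interval 5.25 to 8.09) and 135 of 1751 cells of the wild-type library (7.71%, 6.50 to 9.06), and the intervals overlapped. A cell was taken as a member from its own counts of unique molecular identifiers (UMIs, the tags that mark single captured RNA molecules). It needed at least 3 UMIs of Ly6c2 and Ccr2 together and more of these than of the patrolling monocyte genes Ace, Treml4 and Cd300e. It also had to lie under 2000 CPM (UMIs scaled to a total of 1000000) for the complement genes C1qa, C1qb and C1qc, under 3000 CPM for the class II genes H2-Aa, H2-Ab1 and H2-Eb1, under 20000 CPM for S100a8 and S100a9, and under 5 UMIs of Gzma and Nkg7. These 15 genes chose the cells, so their levels are given only as a description.

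Classical monocytes are short-lived white blood cells that leave the bone marrow through the chemokine receptor Ccr2 and enter tissues, where they can turn into macrophages or into dendritic-type cells. The surface protein Ly6C, made from Ly6c2, marks them in the mouse, while patrolling monocytes carry little of it and crawl along vessel walls. In the brain they are rare in health and more frequent after injury or conditioning of the marrow, and Cx3cr1 encodes the fractalkine receptor, which patrolling monocytes and microglia carry at high levels.

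The cells came from CD45.1 recipient mice that were conditioned with busulfan (4 doses, 25 mg/kg), which clears blood-forming cells, and then transplanted intravenously with sorted donor cells at a 1:1 ratio of donors to recipients. The library labelled Cx3cr1-/+ (heterozygous) holds progeny of blood stem and progenitor cells that lack 1 working Cx3cr1 copy, and the library labelled Cx3cr1+/+ (wild type) progeny of wild-type ones. The protocol text is the same for both and names only Cx3cr1-/+ mice as the source of the GFP+ and GFP- lineage-negative (Lin-) cells, so the donors of the wild-type library are not settled here. The labels called the cells microglia-like and did not state how many animals were pooled, their sex or age, or when they were killed.

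With 1 library per genotype there is no test between genotypes and no replicate check, and each interval below covers counting error only. Classical monocytes held a median of 11994 UMIs and 3119 genes per cell in the heterozygous library and 10941 UMIs and 2911 genes in the wild-type library, and 1102961 and 1626000 UMIs in all. Of 1837 and 2359 barcodes listed, 339 were in both libraries and were left out, among them 9 and 10 cells that would have been members. With them kept, members were 90 of 1489 (6.04%) and 145 of 1949 cells (7.44%). In the heterozygous library 73 of the 81 members carried Xist UMIs and none carried Y-linked UMIs (Ddx3y, Eif2s3y, Kdm5d, Uty). In the wild-type library 88 of 135 carried Y-linked UMIs alone, 1 carried Xist alone, 1 carried both and 45 carried neither. Genotype, library and this sex mark therefore cannot be told apart in any difference between the libraries.

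Genes outside the rule that mark classical monocytes were high in these cells in both libraries. F13a1, the catalytic chain of clotting factor XIII, stood at 671 CPM in classical monocytes of the heterozygous library, against 25.6 CPM in its patrolling monocytes and 61.9 CPM in its class II high dendritic-type cells. In the wild-type library it stood at 659 CPM in classical monocytes, against 17.1 CPM in patrolling monocytes and 30.8 CPM in dendritic-type cells. Fn1, which encodes the matrix protein fibronectin, was at 674 CPM in heterozygous and 467 CPM in wild-type classical monocytes, against 40.1 and 19.3 CPM in their patrolling monocytes. Vcan, which encodes the matrix proteoglycan versican, was at 277 and 208 CPM in classical monocytes, against 44.1 and 14.9 CPM in patrolling monocytes. All 3 defining markers that the rule had not used thus fitted the name.

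The rule genes themselves stood at 1337 CPM (Ly6c2) and 638 CPM (Ccr2) in the heterozygous classical monocytes and at 1272 and 715 CPM in the wild-type ones. After each cell was thinned at random to 2000 UMIs, F13a1 was found in 52 of 80 heterozygous members (65.0%, 53.5 to 75.3) and 83 of 130 wild-type members (63.8%, 55.0 to 72.1). Without thinning it was found in 70 of 81 and 118 of 135. The same thinning left it in 1 of 150 and 7 of 304 patrolling monocytes, and in 0 of 23 and 0 of 51 cells with 10 or more UMIs of Gzma and Nkg7, which served as a cell type that should lack it. Before thinning those lymphoid cells had a median of 7986 UMIs in the heterozygous and 5138 UMIs in the wild-type library. Its share in classical monocytes therefore lay far above its share in those cells.

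Markers of other cell types were also counted in members, and their part in the results below was not tested. The 10 neutrophil markers (2 of them rule genes) summed to 1115 CPM in heterozygous members and 1143 CPM in wild-type members, with none at 0. The 7 markers of macrophages that carry C1q (C1qa, C1qb and C1qc are rule genes) summed to 313 and 253 CPM, with Lyve1 at 0 in the heterozygous library. The 8 microglia markers summed to 216 and 200 CPM, with Sall1 at 0 in the wild-type library. The 7 markers of natural killer and T cells (Gzma and Nkg7 are rule genes) summed to 8.16 and 6.77 CPM, with 5 and 3 of them at 0. The rule capped these rule genes, so it sets the sums of their lists in part. The 5 basophil or mast cell markers summed to 25.4 and 25.2 CPM. One cell in each library carried most of the basophil signal. The heterozygous one held 11 Gata2, 6 Fcer1a and 5 Ms4a2 UMIs beside 3 Ccr2 UMIs, with no Ly6c2 and no Lyz2, and the wild-type one held 23 Mcpt8 and 8 Fcer1a UMIs beside 3 Ccr2 and 2 Lyz2 UMIs. Both sat at the lowest count that the rule accepts.

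Near that limit, the 3 heterozygous members with exactly 3 UMIs of Ly6c2 and Ccr2 held no F13a1, Vcan or Fn1 UMIs, and the 1 cell with 2 UMIs that passed every other condition held 1047 CPM of F13a1. In the wild-type library the 7 members at 3 UMIs held 205 CPM of F13a1, and the 6 cells just outside held 260 CPM. Members with 10 or more UMIs numbered 61 and 97 and held 745 and 715 CPM of F13a1.

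**Figure D1:**
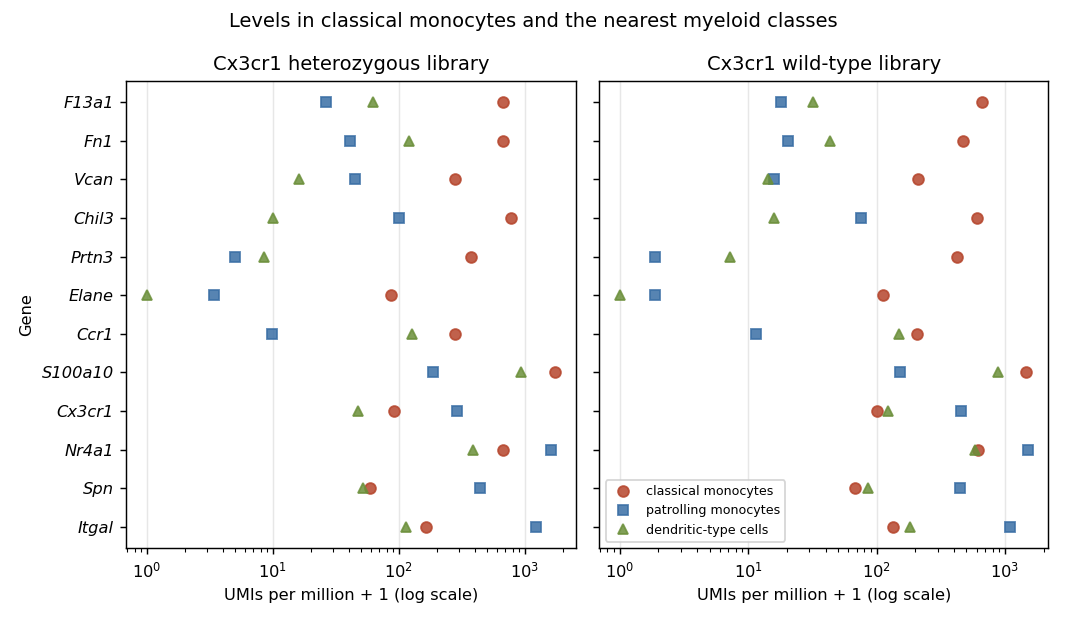
Levels of 12 genes outside the rule in classical monocytes (circles), patrolling monocytes (squares) and class II high dendritic-type cells (triangles), as CPM plus 1 on a log axis, with the heterozygous library on the left and the wild-type library on the right. F13a1, Fn1, Vcan, Chil3, Prtn3, Elane, Ccr1 and S100a10 were highest in classical monocytes in both libraries, and Cx3cr1, Nr4a1, Spn and Itgal were highest in patrolling monocytes.

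Cx3cr1, the gene that differs between the genotypes, was low in classical monocytes of both libraries. It had 100 UMIs in 36 of 81 heterozygous members, or 90.7 CPM (exact Poisson interval 73.8 to 110), and 163 UMIs in 64 of 135 wild-type members, or 100 CPM (85.4 to 117). The log2 ratio of the heterozygous over the wild-type library was -0.14, with an exact conditional binomial interval of -0.52 to 0.22, so no difference was detectable at this depth. Patrolling monocytes held 288 CPM in the heterozygous library and 456 CPM in the wild-type one, above the classical monocytes in each. The 3′ counts do not show whether a UMI came from an intact or an altered allele, so they do not check the genotype by themselves.

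Among the chemokine receptors, Ccr1, a receptor for inflammatory CC chemokines, was higher in classical than in patrolling monocytes, as was Ccr2. Ccr1 was at 279 CPM in heterozygous classical monocytes, against 8.81 CPM in patrolling monocytes, and at 205 CPM in wild-type classical monocytes, against 10.5 CPM. It was not particular to classical monocytes, with 125 and 147 CPM in dendritic-type cells and 221 and 167 CPM over all other kept cells. With 10 CPM added, log2 ratios of classical monocytes over all other kept cells were 0.32 and 0.28 for Ccr1, and 2.70 and 2.49 for Ccr2. Cxcr4, the receptor for the marrow-retaining chemokine Cxcl12, ran the other way, with 155 and 77.5 CPM in classical monocytes, against 333 and 305 CPM in patrolling monocytes. Fpr2, a receptor for formylated peptides, had 7.25 and 23.4 CPM in classical monocytes, against 82.5 and 106 CPM in patrolling monocytes. Ccr1 and the rule gene Ccr2 were thus the receptors of the list at least 4-fold higher in classical than in patrolling monocytes of both libraries, and Fpr2 the one at least 4-fold lower.

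The granule protease genes Prtn3 and Elane were high in classical monocytes and near 0 in patrolling monocytes and dendritic-type cells. Prtn3 encodes proteinase 3 and Elane neutrophil elastase, both serine proteases that granulocyte and monocyte progenitors pack into primary granules. Prtn3 had 410 UMIs in 47 of 81 heterozygous classical monocytes (372 CPM) and 690 UMIs in 84 of 135 wild-type ones (424 CPM). Patrolling monocytes held 4.01 and 0.875 CPM, and dendritic-type cells 7.55 and 6.17 CPM. Elane had 95 UMIs in 16 heterozygous members (86.1 CPM) and 180 UMIs in 20 wild-type members (111 CPM), against 2.40 and 0.875 CPM in patrolling monocytes and 0 UMIs in the dendritic-type cells of either library. Both genes were among the 10 that stood highest in members over all other kept cells, together with Vcan, Fn1, F13a1, Ly6c2, Ccr2, Dmkn, Ms4a4c and S100a10.

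The Prtn3 and Elane promoters are shown because nearly all cells with Elane also held Prtn3. The 250 bases before each RefSeq start are given on the gene's strand (build GRCm38.p6), Prtn3 at chr10:79879417-79879666 and Elane at chr10:79886062-79886311, both on the plus strand of chromosome 10 with starts 6645 bases apart. Capitals mark the letters GAGGAAGT, a PU.1-type motif, and AACGG, a Myb-type motif, found by a search of both strands. The marked motifs do not overlap.
Prtn3: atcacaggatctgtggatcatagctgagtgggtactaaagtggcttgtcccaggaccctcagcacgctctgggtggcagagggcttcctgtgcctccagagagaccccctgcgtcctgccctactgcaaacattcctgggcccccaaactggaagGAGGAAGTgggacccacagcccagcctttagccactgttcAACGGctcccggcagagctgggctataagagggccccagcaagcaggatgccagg
Elane: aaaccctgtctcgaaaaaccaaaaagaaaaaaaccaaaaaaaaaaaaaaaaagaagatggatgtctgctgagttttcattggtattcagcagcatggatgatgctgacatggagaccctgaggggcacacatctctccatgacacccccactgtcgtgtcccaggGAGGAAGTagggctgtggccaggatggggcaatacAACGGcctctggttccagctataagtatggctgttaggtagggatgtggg
GAGGAAGT begins 95 bases before the start of Prtn3 and 85 bases before that of Elane, and AACGG begins 55 and 50 bases before them. Among 27025 mouse promoter windows of the same length, 660 (2.44%) held GAGGAAGT and 4000 (14.8%) held AACGG on either strand. A match describes letters and not binding.

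At 2000 UMIs per cell, Prtn3 was found in 23 of 80 heterozygous members (28.8%, 19.2 to 40.0) and 48 of 130 wild-type members (36.9%, 28.6 to 45.8). It was found in 1 of 150 and 1 of 304 patrolling monocytes, and in 1 of 23 and 1 of 51 of the Gzma- and Nkg7-bearing cells. Elane was found in 7 of 80 heterozygous members, all of which also held Prtn3, and in 7 of 130 wild-type members, of which 6 held Prtn3. Elane UMIs thus lay almost wholly inside the Prtn3-bearing members. The other progenitor granule genes were scarcer. Ctsg, which encodes cathepsin G, had 25 UMIs in 14 heterozygous and 75 UMIs in 16 wild-type members, Mpo, which encodes myeloperoxidase, had 7 and 15 UMIs, and Ms4a3 had 2 and 4 UMIs. Mmp8, a collagenase of neutrophil granules, was at 101 and 126 CPM in classical monocytes, against 12.8 and 7.88 CPM in patrolling monocytes.

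Mouse classical monocytes are described as being of different origin, a neutrophil-like kind from granulocyte and monocyte progenitors, often marked by Chil3 (the chitinase-like protein Ym1), and a dendritic-type kind marked by Cd209a. Chil3 was common in members and Cd209a was nearly absent. At 2000 UMIs per cell, Chil3 was found in 38 of 80 heterozygous members (47.5%, 36.2 to 59.0) and 50 of 130 wild-type members (38.5%, 30.1 to 47.4), against 12 of 150 and 23 of 304 patrolling monocytes. Cd209a was found in 0 of 80 heterozygous members, an interval up to 4.51%, and in 1 of 130 wild-type members (0.769%, 0.0195 to 4.21). It was found in 8 of 53 and 17 of 97 dendritic-type cells, which the class II ceiling of the rule keeps apart. The rule can therefore set the low share of Cd209a in members. Prtn3 and Chil3 were found together in 13 of 80 and 13 of 130 members, while 10 and 35 held Prtn3 alone and 25 and 37 held Chil3 alone.

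A part of the classical monocytes carried cell cycle transcripts. After thinning, 23 of 80 heterozygous members (28.8%, 19.2 to 40.0) and 26 of 130 wild-type members (20%, 13.5 to 27.9) held at least 3 UMIs of 14 genes of S phase and mitosis, and the intervals overlapped. Patrolling monocytes reached that count in 1 of 150 and 2 of 304 cells, dendritic-type cells in 7 of 53 and 14 of 97, and the lymphoid cells in 7 of 23 and 9 of 51. The minimum of 3 was set after the values were seen, with 5 and 7 members at 2 UMIs and 1 and 3 at exactly 3, while 45 and 78 held none. Members at or over it, called cycling here, had a median of 15077 UMIs in the heterozygous and 15764.5 UMIs in the wild-type library before thinning, against 11815 and 10468 in the other members.

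**Figure D2:**
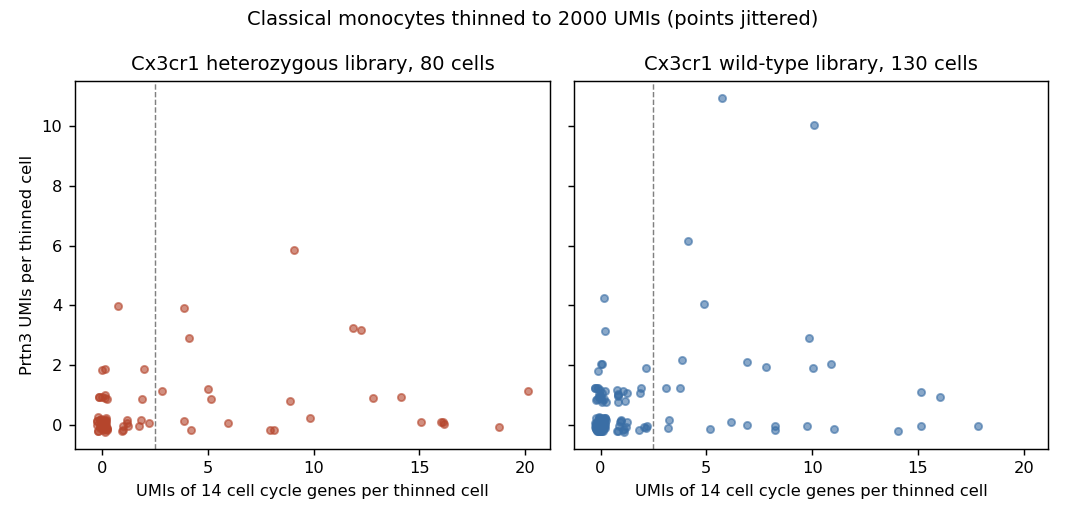
UMIs of the 14 cell cycle genes (horizontal axis) and of Prtn3 (vertical axis) in each classical monocyte thinned to 2000 UMIs, with 80 heterozygous cells on the left and 130 wild-type cells on the right, jittered to show overlapping points. The dashed line separates cycling members (3 or more UMIs) from the others, and cells with several Prtn3 UMIs lie mostly to its right in both panels.

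The genes behind the count encode enzymes and structural proteins of division. Mki67, which encodes the proliferation antigen Ki-67, was at 164 CPM in heterozygous and 118 CPM in wild-type classical monocytes, against 9.61 and 15.3 CPM in patrolling monocytes. Top2a, the topoisomerase that untangles replicated DNA, was at 199 and 178 CPM, against 24.8 and 25.8 CPM. Cdk1, the kinase that drives entry into mitosis, was at 67.1 and 48.0 CPM, against 1.60 and 4.38 CPM. Pclaf, a partner of the replication clamp, was at 309 and 260 CPM, against 23.2 and 12.7 CPM.

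The Top2a and Cdk1 promoters are shown as examples of genes that were high in the same members. The 250 bases before each RefSeq start are given on the gene's strand, which is the minus strand of GRCm38.p6 for both, Top2a at chr11:99024190-99024439 and Cdk1 at chr10:69352913-69353162. Capitals mark TTTGAA, the letters of the cell cycle homology region (CHR), and CCAAT, on either strand, so that they also read TTCAAA and ATTGG. The marked motifs do not overlap.
Top2a: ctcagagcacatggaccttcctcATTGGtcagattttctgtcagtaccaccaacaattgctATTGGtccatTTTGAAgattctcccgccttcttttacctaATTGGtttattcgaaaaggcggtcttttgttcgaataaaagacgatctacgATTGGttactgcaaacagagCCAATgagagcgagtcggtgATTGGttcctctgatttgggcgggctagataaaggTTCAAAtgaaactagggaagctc
Cdk1: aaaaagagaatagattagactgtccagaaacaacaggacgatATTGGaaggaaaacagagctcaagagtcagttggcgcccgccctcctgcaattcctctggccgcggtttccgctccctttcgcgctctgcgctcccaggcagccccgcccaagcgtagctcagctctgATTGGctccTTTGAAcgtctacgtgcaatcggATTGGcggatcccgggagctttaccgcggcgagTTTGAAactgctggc
Top2a held 6 CCAAT motifs and 2 CHR motifs in this window, and Cdk1 held 3 and 2. Of the 14 cell cycle genes, 12 had an entry in the promoter table. Of these 12, 9 held 2 or more CCAAT motifs and 5 held a CHR motif, while 2849 (10.5%) and 4398 (16.3%) of all 27025 windows did.

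Cycling classical monocytes held more Prtn3, Elane and Ctsg RNA and less RNA of some macrophage and patrolling monocyte genes than the other classical monocytes. The levels below describe cells split by the cell cycle genes, so the cell cycle genes themselves are left out. Prtn3 was at 697 CPM in cycling and 201 CPM in the other heterozygous members, and at 1076 CPM in cycling and 190 CPM in the other wild-type members. Elane was at 218 against 16.6 CPM in heterozygous members and at 373 against 15.97 CPM in wild-type members. In thinned cells Prtn3 was found in 52.2% of cycling and 19.3% of other heterozygous members, and in 53.8% and 32.7% of wild-type ones. These shares are given without intervals.

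On the lower side, Apoe, which encodes a lipid carrier of macrophages, was at 218 CPM in cycling and 829 CPM in other heterozygous members, and at 76.6 against 859 CPM in the wild-type library. Csf1r, the receptor for the macrophage growth factor, was at 137 against 305 CPM and at 104 against 313 CPM. Il1b, an inflammatory cytokine, was at 255 against 772 CPM and at 53.4 against 961 CPM. Cx3cr1 was at 55.2 against 108 CPM and at 37.1 against 124 CPM, a log2 ratio of -0.97 (-1.74 to -0.26) in the heterozygous and -1.74 (-2.58 to -0.99) in the wild-type library. F13a1 stood at 678 against 668 CPM and at 756 against 626 CPM, log2 ratios of 0.02 (-0.20 to 0.24) and 0.27 (0.08 to 0.46).

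Of 5427 genes with 20 or more UMIs in each library's members, 233 (4.29%) were at least 2-fold higher in cycling members of both libraries and 162 (2.99%) at least 2-fold lower. Among the gene lists, 3 of 11 genes of neutrophil-like monocytes were higher (Prtn3, Elane and Ctsg). That list also names the rule genes S100a8 and S100a9. Lower were 8 of 21 macrophage differentiation genes (Adgre1, Csf1r, Apoe, Ms4a7, Mrc1, Cd63, Selenop and Lgmn), 7 of 18 patrolling monocyte genes and 6 of 29 type I interferon response genes, among them Isg15 and Ifitm6. The chemokine ligands Ccl4, Ccl6, Cxcl1 and Cxcl2 were lower too, 4 of 8 measured. Over all heterozygous members, the top cell held 599 of the 1492 Ccl4 and 210 of the 1069 Ccl6 UMIs. Cxcl1 was found in only 9 heterozygous and 8 wild-type members. For Cxcl2 the top cell held 464 of 3585 heterozygous and 384 of 5512 wild-type UMIs. The part of single cells in these chemokine ratios was not tested. None of 18 classical monocyte genes outside the rule passed the fold in either direction. The cycling members also had more UMIs per cell. Their median of Ly6c2 and Ccr2 UMIs together was 24 against 21 in the heterozygous and 33.5 against 16 in the wild-type library. The part of depth and of this rule count in the ratios of cycling over other members was not tested.

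**Figure D3:**
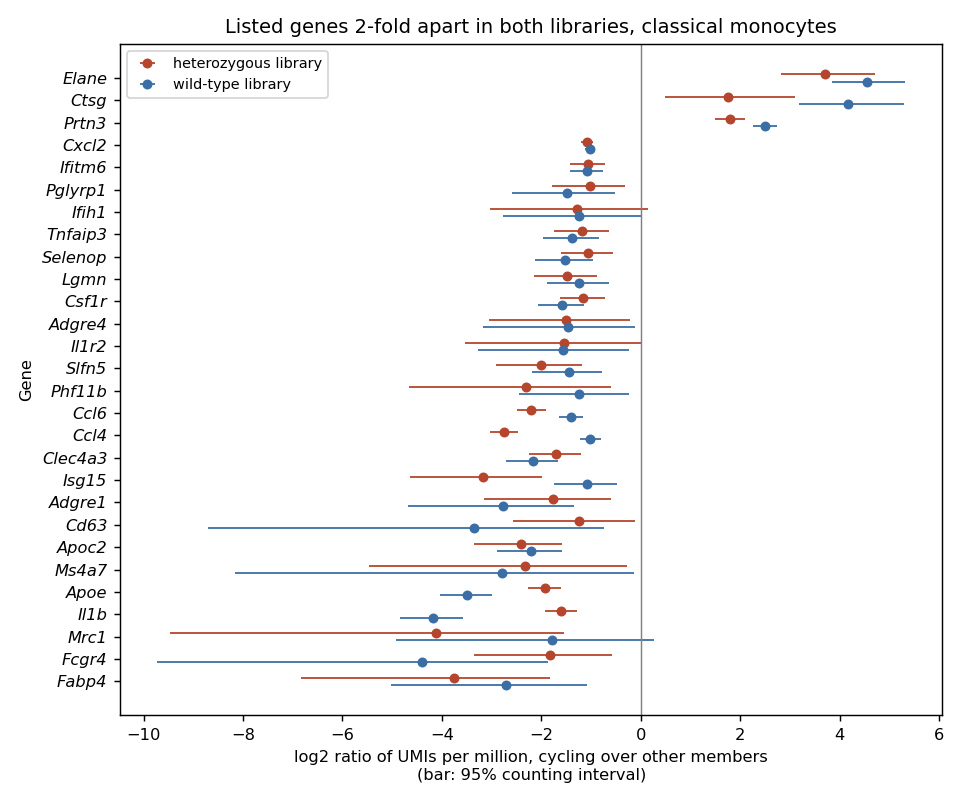
Log2 ratio of CPM in cycling over other classical monocytes for 28 genes of 6 lists that were at least 2-fold apart in both libraries and had UMIs in both subsets, heterozygous above wild type for each gene, with bars for 95% counting intervals. The 3 genes at the top (Elane, Ctsg and Prtn3) were higher in cycling members and the other 25 were lower, with intervals reaching to or past 0 for Ifih1, Il1r2 and Mrc1.

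Patrolling monocytes, the nearest class, were selected by the mirror image of the same rule, so the comparison with them describes both classes and tests neither. Of 5144 genes with 50 or more UMIs in the classical and patrolling monocytes of each library, 83 (1.61%) were at least 4-fold higher in classical monocytes of both libraries and 108 (2.10%) at least 4-fold lower. The largest group on the high side was the cell cycle, with 16 of 20 measured genes. With the cycling members left out, 39 of 4392 genes were at least 4-fold higher. Of 17 classical monocyte genes outside the rule, 6 were at least 4-fold higher, among them Vcan, Fn1, F13a1, Chil3 and Thbs1, and of 20 patrolling monocyte genes outside the rule, 15 were at least 4-fold lower.

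Adhesion genes divided between the classes. The alpha chain gene Itgal of the integrin LFA-1 was at 164 CPM in heterozygous and 132 CPM in wild-type classical monocytes, against 1229 and 1087 CPM in patrolling monocytes. Spn, which encodes the sialoglycoprotein CD43, was at 58.0 and 67.0 CPM, against 439 and 447 CPM, and Pecam1, a junction protein, at 14.5 and 11.1 CPM, against 179 and 192 CPM. Thbs1, which encodes thrombospondin, was at 280 and 195 CPM, against 19.2 and 13.6 CPM.

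Transcription factor genes differed less. None of 22 measured at the minimum of 50 UMIs was 4-fold higher in classical monocytes of both libraries, and only Pparg, a lipid-sensing nuclear receptor, was 4-fold lower. Tfec, given at the end, fell under that minimum. Nr4a1, which patrolling monocytes need to develop in the mouse, was at 673 and 616 CPM in classical monocytes, against 1625 and 1510 CPM in patrolling monocytes. Irf8, a factor of monocyte and dendritic cell development, was at 136 and 141 CPM in classical monocytes, between 75.3 and 94.1 CPM in patrolling monocytes and 454 and 365 CPM in dendritic-type cells. Cebpd, a factor of myeloid gene expression, was at 173 and 181 CPM, against 72.1 and 63.5 CPM in patrolling monocytes. The heme and iron, NADPH oxidase, pattern recognition and immediate early lists held no gene 4-fold apart in both libraries.

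Between the genotypes, most genes of classical monocytes were alike. Of 5457 genes with 50 or more UMIs over both libraries, 204 (3.74%) were at least 1.5-fold higher in the heterozygous library and 193 (3.54%) at least 1.5-fold lower, with a median log2 ratio of 0.00 over all of them. TMM scaling, which moved every ratio by -0.04 on the log2 scale, gave 169 higher and 240 lower genes, and leaving out the member with most UMIs of each gene, with the minimum of 50 UMIs applied again, gave 151 and 228 of 5135. These folds describe 1 library against another and were not tested. At a minimum of 200 UMIs, 13 genes were at least 1.5-fold higher and 5 at least 1.5-fold lower of 1927. Among the defining markers outside the rule, F13a1 had a log2 ratio of 0.03 (-0.11 to 0.16), Vcan 0.41 (0.18 to 0.63) and Fn1 0.53 (0.38 to 0.68), all inside 1.5-fold.

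Single cells carried several of the largest differences. Il4, the type 2 cytokine interleukin 4, had 93 UMIs in the heterozygous library, all in the basophil-marked cell described above, and 1 UMI in the wild-type library. Ccl24, an eosinophil-attracting chemokine, had 142 heterozygous UMIs, of which 138 lay in 1 cell, against 5 in the wild-type library. Gdf15, a stress-induced growth factor, had 10 heterozygous UMIs against 139 in the wild-type library, of which 126 lay in 1 cell. Saa3, an acute-phase protein of macrophages, had 7 heterozygous UMIs in 5 cells against 132 wild-type UMIs in 12 cells, of which 2 cells gave 51 and 46. With the top cell of each library left out and no minimum applied again, 172 of the 204 genes and 188 of the 193 genes stayed past 1.5-fold.

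Other genes had their UMIs in more cells, though a few cells held a large part for some of them. Dab2, an endocytic adaptor, was at 45.3 CPM in 10 heterozygous members, against 3.69 CPM in 6 wild-type members, and its log2 ratio of 3.62 was 3.39 without the top cell of each library. The cell with most Ccl24 held 15 of the 50 heterozygous Dab2 UMIs and 16 of the 34 Mrc1 UMIs. The cell with most Ccl7 held 10 and 7 more. Hist1h2ap, a replication-dependent histone gene, was at 614 CPM in 30 members against 243 CPM in 31 members, a log2 ratio of 1.34 (1.16 to 1.52). The excess was not particular to members, with 184 against 77.1 CPM in all other kept cells. Patrolling monocytes held 35.2 against 15.3 CPM, dendritic-type cells 106 against 96.0 CPM and the lymphoid cells 1495 against 137 CPM. Copies of Hist1h2ap are near identical to other histone genes, so its reads may have been split among them. Tk1 (39.0 against 17.2 CPM) and Cenpq (40.8 against 17.8 CPM), genes of nucleotide salvage and of the centromere, were higher as well, as was the cyclin gene Ccnd2 (45.3 against 15.4 CPM). The remaining highest genes were Cxcl1, Trim28, Cd36, Mrc1 and Arhgap4, with log2 ratios between 1.16 and 1.49. Cxcl1 was found in only 9 heterozygous and 8 wild-type members. The top cell held 29 of its 78 heterozygous and 24 of its 41 wild-type UMIs, and without those cells its log2 ratio was 2.11.

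The lowest ratios in the heterozygous library after Saa3 and Gdf15 were smaller. Hpgd, which breaks down prostaglandins, was at 10.9 CPM in 10 heterozygous members and 32.6 CPM in 21 wild-type members, a log2 ratio of -1.58 (-2.62 to -0.66). Lrg1, a secreted glycoprotein, was at 11.8 and 34.4 CPM, Id1, an inhibitor of helix-loop-helix factors, at 16.3 and 40.0 CPM, and Cdc42ep2, a partner of the GTPase Cdc42, at 22.7 and 55.4 CPM. Parp9, which the interferon response also raises, was found in 16 of 81 and 43 of 135 members, at 14.5 and 32.6 CPM. Mxi1, Tvp23b, G0s2, Senp3 and Adnp followed, with log2 ratios between -1.18 and -1.11. Senp3 was at -0.33 without the cycling members, and G0s2 at -0.46 with barcodes of both libraries kept, both inside 1.5-fold. Each gene named here had 25 or fewer UMIs in the heterozygous library.

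**Figure D4:**
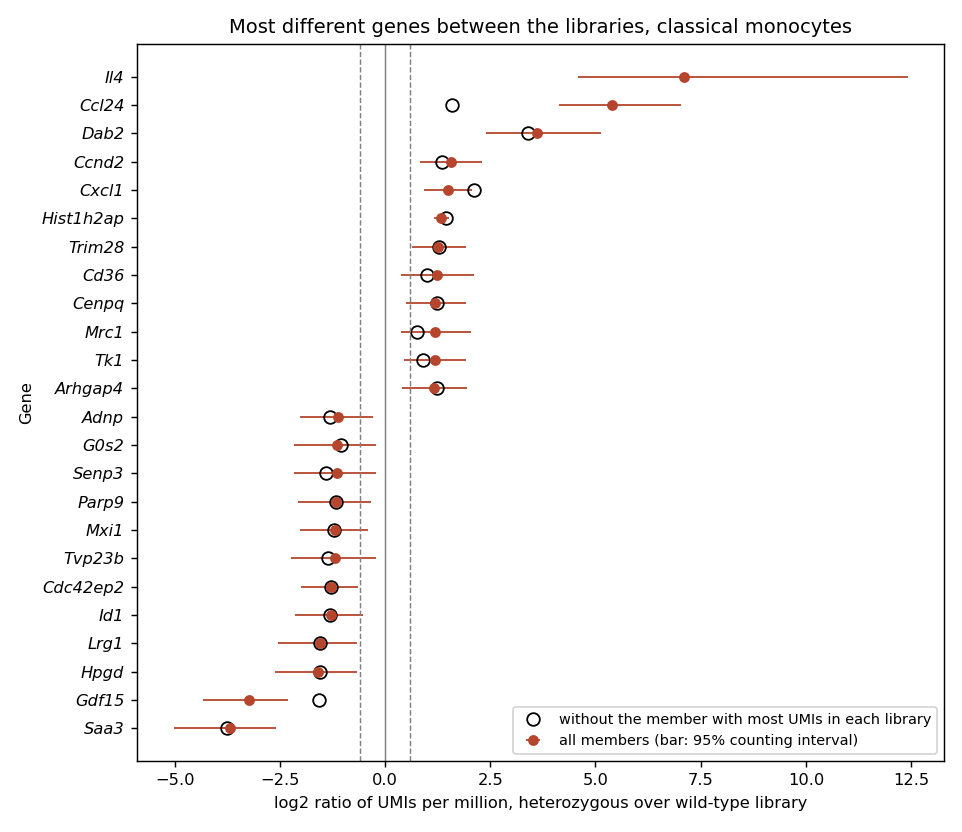
Log2 ratio of CPM in the heterozygous over the wild-type library, in classical monocytes, for the 12 genes with the highest and the 12 with the lowest ratios, with bars for 95% counting intervals and dashed lines at 1.5-fold. Open circles leave out the member with most UMIs of that gene in each library, which moved Ccl24 to 1.59 and Gdf15 to -1.57 and left no value for Il4.

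The gene lists were read at 20 or more UMIs over both libraries, where 606 of 7763 genes (7.81%) were at least 1.5-fold higher in the heterozygous library and 506 (6.52%) at least 1.5-fold lower. Of 39 type I interferon response genes, 1 was higher and 8 were lower, the median log2 ratio was -0.22, and 33 were below 0, against 3813 of all 7763 genes. The 8 lower genes were Cxcl10, Ddx58, Oas3, Oasl2, Ifi205, Rtp4, Phf11b and Tor3a, and the higher one was Dhx58. Cxcl10, an interferon-induced chemokine, was at 118 CPM in 23 heterozygous members and 208 CPM in 37 wild-type members, a log2 ratio of -0.82 (-1.12 to -0.52). Ifi27l2a, another interferon-induced gene, was at 928 and 1363 CPM, just inside 1.5-fold. Cycling members, which held less RNA of some of these genes, made up 28.8% of heterozygous and 20% of wild-type members, and without them the median was -0.14.

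Among the genes of neutrophil-like monocytes, 0 of 15 were higher and 3 were lower (Saa3, Ctsg and Cd177), with a median log2 ratio of -0.34. The list holds the rule genes S100a8 and S100a9, whose levels the rule capped. Without the cycling members the median was -0.10, and without the member with most UMIs of each gene it was -0.23. Ctsg, at 22.7 CPM in heterozygous and 46.1 CPM in wild-type members, drew 28 of its 75 wild-type UMIs from 1 cell, and without the cycling members its log2 ratio was 0.57. Prtn3 (-0.19, -0.37 to -0.01) and Elane (-0.36, -0.74 to 0.00) stayed inside 1.5-fold. The 22 cell cycle genes had a median log2 ratio of 0.26, with 3 below 0, 1 past 1.5-fold (Mcm5, a helicase subunit, at 85.2 and 50.4 CPM) and a median of 0.08 without the cycling members.

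Of 9 chemokine receptors, the rule gene Ccr2 included, 3 were higher and 1 was lower in heterozygous members. Among them they held more Cxcr4 (155 against 77.5 CPM, log2 ratio 1.00) and C3ar1 (18.1 against 4.92 CPM) and less Fpr2 (7.25 against 23.4 CPM). Without the cycling members the log2 ratio of Cxcr4 was 0.53. Of 13 chemokine ligands, 4 were higher (Ccl24, Ccl7, Cxcl1 and Pf4) and 3 were lower (Ccl2, Ccl5 and Cxcl10), and the median of 0.30 was -0.12 without the member with most UMIs of each gene. The 11 dendritic-type monocyte genes had a median of 0.28, which was -0.11 without the cycling members and -0.57 without members above the 90th percentile of UMIs. Their list holds the rule genes H2-Aa, H2-Ab1 and H2-Eb1, whose levels the rule capped. Ccl7, a monocyte attractant, had 31 of its 38 heterozygous UMIs in 1 cell. Of 21 inflammatory genes, 4 were higher and 0 lower. Ptgs2, the inducible cyclooxygenase, was at 148 CPM in 26 heterozygous and 75.6 CPM in 40 wild-type members (log2 ratio 0.97). Il6 was at 65.3 and 43.1 CPM, with 19 of its 72 heterozygous UMIs in the basophil-marked cell. Il10 had 18 and 3 UMIs and Il1a 14 and 12 UMIs, with 8 and 7 of the heterozygous ones in 1 cell. Without the top cell of each library the log2 ratios of Il6 (0.46) and Il1a (0.37) were inside 1.5-fold, and those of Ptgs2 (0.84) and Il10 (2.89) stayed past it.

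Of 24 macrophage differentiation genes, 4 were higher (Mrc1, Cd63, C3ar1 and Ms4a7) and 2 were lower (Trem2 and Axl). Trem2, a lipid-sensing receptor of macrophages, was at 87.0 CPM in 44 of 81 heterozygous members and 139 CPM in 88 of 135 wild-type members, a log2 ratio of -0.68 (-1.04 to -0.32). Mrc1, the mannose receptor, was at 30.8 and 13.5 CPM, with 16 of its 34 heterozygous UMIs in 1 cell. Of the transcription factors, Runx3 was at 71.6 and 38.7 CPM and the sterol-sensing receptor gene Nr1h3 at 4.53 and 20.3 CPM, and the other 20 of 22 lay inside 1.5-fold. No measured gene of coagulation and matrix (16), Fc receptors (6), the phagocyte NADPH oxidase (6), immediate early and heat shock genes (22) or S100 proteins and annexins (16) passed 1.5-fold. The last of these lists holds the rule genes S100a8 and S100a9.

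**Figure D5:**
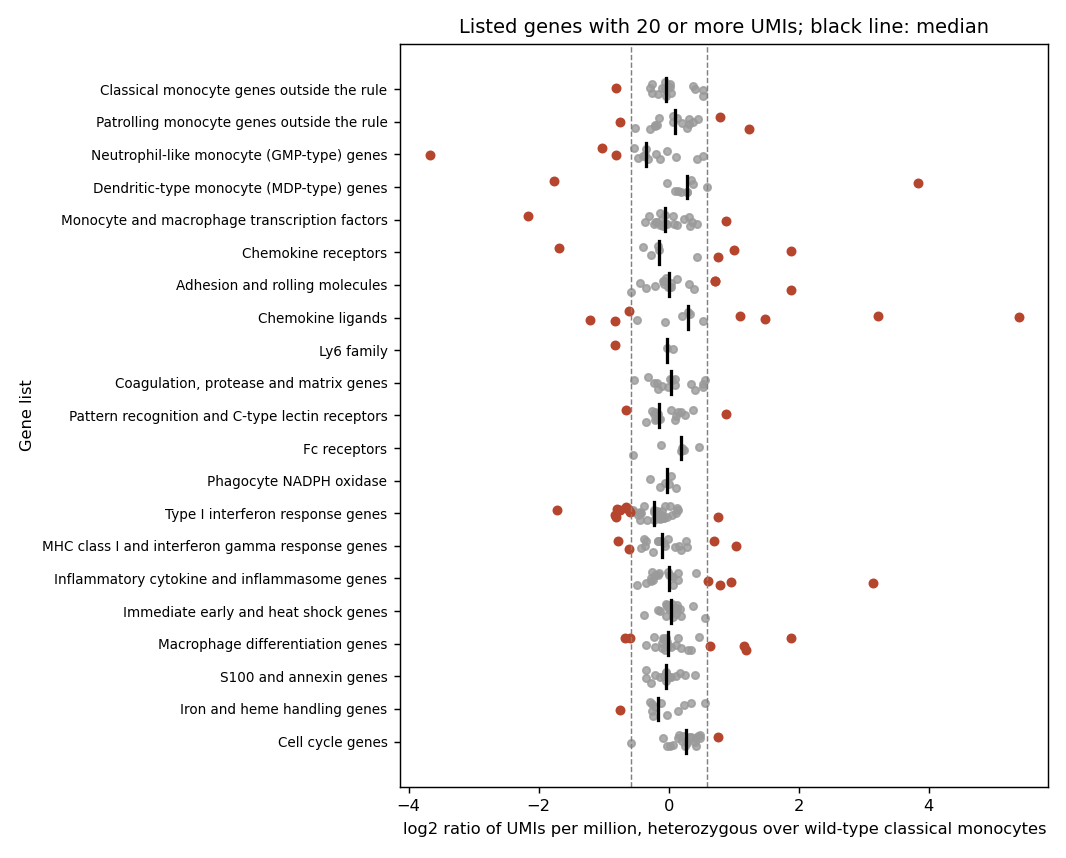
Log2 ratio of CPM in heterozygous over wild-type classical monocytes for the genes of 21 lists with 20 or more UMIs, 1 point per gene, with the list median as a black line, dashed lines at 1.5-fold and genes past that fold in red. The list medians farthest from 0 were those of neutrophil-like monocyte genes (-0.34), chemokine ligands (0.30), dendritic-type monocyte genes (0.28), cell cycle genes (0.26) and interferon response genes (-0.22). The lists of neutrophil-like and dendritic-type monocyte genes include rule genes.

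Single cells carried part of the spread among members. After thinning, the 10 genes outside the rule with the highest ratio of variance to mean for their level, of 2239 ranked, were Ifitm1, Cxcl2, Cd74, Malat1, Lyz2, Ccl4, Ccl6, Apoe, Tmsb10 and Il1b. Ccl4, a chemokine of activated macrophages, was found in 29 of 80 heterozygous members with a variance 116 times its mean, and in 65 of 130 wild-type members with a variance 8.04 times its mean. In the heterozygous library 599 of its 1492 UMIs came from 1 cell. Without the top cell of each library its log2 ratio was -0.05, against 0.52 with all members. Cd74, the invariant chain of class II, was found in 28 of 80 and 49 of 130 members. Ifitm1, an interferon-induced membrane protein, was found in 7 of 80 and 18 of 130 members, with variances 14.6 and 12.2 times its mean, and 1 cell held 71 of its 168 heterozygous and 1 cell 86 of its 344 wild-type UMIs.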

How the data were processed

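The authors deposited raw UMI counts per gene and barcode for 2 libraries of the 10x 3′ v3.1 kit. They used Cell Ranger 4.0 and mm10, per the submitters' processing notes, while the matrices name Cell Ranger 5.0.0, per the file headers. Barcodes were kept from 500 genes upward if mitochondrial UMIs stayed below 10%, those listed in both libraries were left out, and no doublet caller was run. UMIs were summed over classical monocytes and given as CPM (scaled to 1000000). Intervals are 95% exact (Poisson, Clopper-Pearson, conditional binomial). Shares used cells thinned to 2000 UMIs.

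The members and the 21 gene lists were chosen with earlier results of these data known. Genes were named by rule: Cx3cr1, 5 markers, the 12 highest and 12 lowest ratios (predicted, ribosomal, mitochondrial, haemoglobin and sex-marker genes left out), up to 4 genes per list past 1.5-fold or its most abundant 2, the 12 at each end against patrolling monocytes, the 10 highest over other cells and the 10 most spread. Genes named beyond that were chosen after their values were seen. In folds between classes 10 CPM were added for ranking. Of 388 listed genes 385 were analysed here. Promoters came from RefSeq (GRCm38.p6). Python 3.11.15, numpy 2.4.6, scipy 1.17.1 and edgeR (TMM factors only) were used. Some listed genes are not reported here.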

Additional observations from a re-analysis of the deposited data

How the results depend on the processing

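No paired analysis was possible because each genotype had 1 library. For the same reason no replicate could be left out. The setting that leaves out the top member of each gene, and those that leave out basophil-marked or cycling members, were chosen after seeing the data. Of 93 recomputed counts and shares, 81 stayed within 1.5 times (counts) or within the counting interval (shares). The 93 values came from 18 settings and, for some shares, also from thinning to 1000 UMIs and from no thinning. Equal weight per cell gave 339 genes at least 1.5-fold higher and 309 lower. A minimum of 10 UMIs gave 930 and 841 of 9096, with 235 genes 4-fold over patrolling monocytes. A minimum of 200 UMIs gave 13 and 5, with 29. Without cycling members that count was 39. Chil3 was found in 35.8% of heterozygous members thinned to 1000 UMIs, and without thinning in 72.8% of heterozygous and 52.6% of wild-type members. TMM scaling (a shift of -0.04 log2) gave 169 higher and 240 lower genes.

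Of 61 named genes past 1.5-fold, 56 kept their direction under every setting run but only 28 stayed past 1.5-fold under every one, and Il4 had no value without its 1 cell. Reversed log2 ratios were those of Gdf15 (0.78 with C1q genes under 500 CPM, 0.74 with class II under 1000 CPM, 0.26 without members above the 90th percentile of UMIs), Ctsg (1.31 at that percentile, 0.57 without cycling members), Il1a (-0.53 with C1q genes under 500 CPM) and Klrd1 (-0.43 without its top member). At the setting nearest to 0 the log2 ratio was 0.11 for Ccl24, 0.15 for Mrc1, 0.18 for Il6 and 0.30 for Cd63. It was 0.30 for Mcm5, 0.34 for Cxcl1, 0.52 for C3ar1, 0.53 for Cxcr4 and 0.56 for Runx3. Among lower genes it was -0.30 for Rtp4, -0.44 for Oasl2, -0.57 for Cxcl10 and -0.58 for Trem2. All of these lay inside 1.5-fold, and the list is not complete. The cause of these shifts was not tested. Depth limits genes under about 50 UMIs to wide intervals, and free RNA and doublets were not removed.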

Other observations

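Dmkn, which encodes dermokine, lies outside the usual lists and was chosen by its level over all other kept cells. Those cells include the patrolling monocytes and dendritic-type cells, so the levels below describe Dmkn and do not test it as a marker. After thinning, Dmkn was found in 8 of 80 heterozygous members (10.0%) and 15 of 130 wild-type members (11.5%). Without thinning it was at 65.3 CPM in 26 of 81 heterozygous members and 61.5 CPM in 36 of 135 wild-type members, against 2.40 CPM and 0 UMIs in patrolling monocytes and 4.53 and 4.40 CPM in dendritic-type cells. Tfec, a transcription factor of the MiT family chosen after its values were seen, was at 22.7 and 21.5 CPM in classical monocytes, against 1.60 and 1.31 CPM in patrolling monocytes. It fell under the minimum of 50 UMIs and so was not among the 22 transcription factor genes measured above. Ccl2, a ligand of Ccr2, was at 252 and 383 CPM in classical monocytes, against 49.7 and 43.8 CPM in patrolling monocytes.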
